A study of Danio rerio with 6 samples.

Results

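The 9 genes described here mark the white blood cells of the zebrafish: mpx and lyz for neutrophils, mpeg1.1 and marco for macrophages, lcp1, coro1a, spi1b and ptprc for leukocytes in general, and il1b for the inflammatory response. They were taken by Ensembl identifier as a list drawn from known markers, and they are 9 of the 31901 genes in the count tables. RNA was sequenced from regenerating caudal fins of fish carrying the shha:eGFP transgene, a green fluorescent reporter of the Hedgehog ligand gene shha, at 96 hours post amputation. The distal group (3 samples, numbered 2, 3 and 4) was the microdissected part of the regenerate with reporter signal, and the proximal group (3 samples with the same numbers) was the part nearer to the stump. Every sample pooled 4 fins, all groups carried the transgene, and the labels give neither strain nor age.

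A cut fin draws in neutrophils first and macrophages later. Neutrophils carry granules of peroxidase and proteases and usually leave once a wound has closed, while macrophages stay in the outgrowth, clear debris and signal to the growing tissue. Macrophages are known to be needed for normal zebrafish fin regrowth. Interleukin 1 beta, the product of il1b, is made by leukocytes and also by epithelial cells of the wound, so il1b is not a marker of a single cell type.

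Gene-assigned reads numbered 20113859 to 23629159 per library, and levels are given as CPM, counts per 1000000 gene-assigned reads. Fold changes come from edgeR's quasi-likelihood test on all 18455 genes that passed its filter on low counts, with p-values adjusted over all of these genes by the Benjamini-Hochberg method and a threshold of 0.05 for a call. TMM scaling, a trimmed mean of M-values, corrects for a few genes taking many reads. It placed the median of the log2 fold changes over all tested genes at -0.015, against 0.11 on library size alone, a shift of 0.12, so a fitted fold change lies slightly below the ratio of the CPM values printed with it. The labelled tissue was checked with marker lists for fin epidermis and for fibroblasts or blastema. The 11 epidermal genes summed to 30674 to 33295 CPM in distal and 68674 to 78572 CPM in proximal libraries, and the 10 fibroblast or blastema genes to 17617 to 25103 CPM in distal and 12107 to 13664 CPM in proximal libraries. The epidermal sum was carried mainly by the keratin genes krt5 (means of 14914 CPM in distal and 37048 CPM in proximal tissue) and krt91 (6900 and 22902 CPM). Of the 11 epidermal genes, 5 were called lower and 1 higher in distal tissue, with a median log2 fold change of -0.33. The fibroblast or blastema sum was carried by the collagen gene col1a1a. Without col1a1a the sum was lower in distal tissue, at 4855 to 5487 CPM in distal and 6401 to 6789 CPM in proximal libraries. That remainder includes the collagen gene col1a2, with means of 3583 CPM in distal and 5204 CPM in proximal tissue. Gene by gene, 6 of the 10 were called higher and 2 lower in distal tissue, and their median log2 fold change was 1.17.

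The distal regenerate had less RNA of the neutrophil gene mpx and of the general leukocyte genes ptprc, lcp1 and coro1a, while no change was called for the macrophage genes mpeg1.1 and marco or for il1b. Of the 9 genes, 8 could be tested and 4 were called, all of them lower in distal tissue, where 14.4% of all tested genes were called lower. None was called higher in distal tissue by edgeR, DESeq2 or limma-voom (0 in edgeR also at an unadjusted p under 0.05), where 15.3% of all tested genes were. In 3 of the 9 genes (mpx, lcp1 and ptprc) every distal library lay below every proximal library in CPM, and in 0 genes above. The corresponding shares over all tested genes were 16.4% and 30.1%. In a bulk sample, fewer cells of a type and less RNA per cell cannot be told apart.

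**Figure D1:**
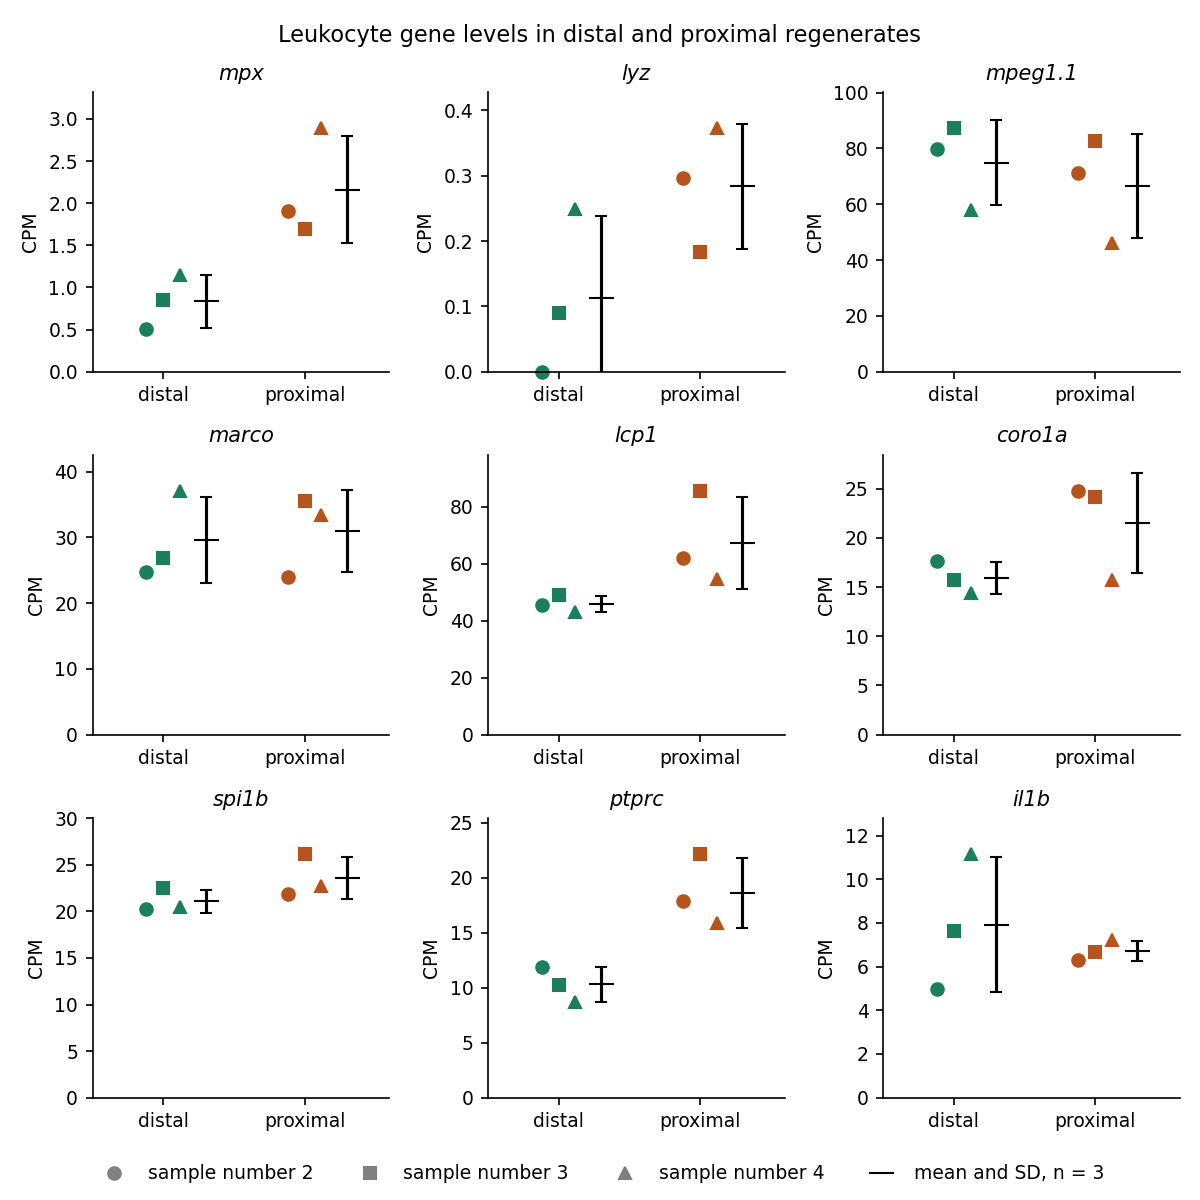
Levels of the 9 leukocyte genes in CPM (vertical axes, each from 0) in distal and proximal libraries. Each point is a library, shaped by its sample number, and bars are the mean and SD of 3 libraries, with the lower arm of lyz in distal tissue ending at 0. The distal and proximal points do not overlap for mpx, lcp1 and ptprc, and they overlap for the other 6 genes.

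Among the neutrophil genes, mpx (ENSDARG00000019521) encodes myeloperoxidase, the enzyme of neutrophil granules that makes hypochlorous acid. It had 0.512, 0.850 and 1.14 CPM in the distal samples numbered 2, 3 and 4, against 1.90, 1.69 and 2.89 CPM in the proximal samples. The groups did not overlap, and within each region the sample numbered 4 was the highest. The gene was lower in distal tissue, with a log2 fold change of -1.50 (SE 0.37; adjusted p in edgeR = 0.0187), which puts the distal level at 35.4% of the proximal level. These values rest on few reads, 11, 19 and 23 in distal and 45, 37 and 62 in proximal libraries, so the spread between distal libraries (a coefficient of variation of 37.8%) includes a counting error of 23.8%. The call was lost without distal sample 2 (log2 fold change -1.25, edgeR adjusted p = 0.0595), without distal sample 3 (-1.50, adjusted p = 0.0606) or without proximal sample 4 (-1.20, adjusted p = 0.0528), and without both samples numbered 2 or both numbered 3 (edgeR adjusted p = 0.120 and 0.0792). Over the alternatives run, the adjusted p lay between 0.000479 and 0.120, and the direction was the same in all 15. The gene table used for names lists this identifier under the symbol of eosinophil peroxidase, a close relative.

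The second neutrophil gene, lyz (ENSDARG00000057789), encodes lysozyme C, which cuts bacterial cell walls. It was close to the limit of detection, with 0, 2 and 5 reads in distal libraries and 7, 4 and 8 reads in proximal libraries. That is 0, 0.0895 and 0.249 CPM in distal and 0.296, 0.183 and 0.372 CPM in proximal tissue, where 3 reads correspond to between 0.127 and 0.149 CPM. The groups overlapped, and the gene did not pass the filter and was not tested. Pooled over libraries, the distal to proximal ratio was 0.386, with a 95% interval of 0.137 to 0.959 that covers counting error only.

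Of the macrophage genes, mpeg1.1 (ENSDARG00000055290) encodes a perforin-like protein that forms pores in engulfed bacteria, and it is the usual reporter gene for zebrafish macrophages. It had 79.8, 87.1 and 57.8 CPM in distal samples 2, 3 and 4, and 71.1, 82.5 and 46.0 CPM in proximal samples 2, 3 and 4. The groups overlapped almost completely, and the samples numbered 4 were the lowest of both regions. Its fitted log2 fold change was 0.06 (SE 0.21; adjusted p in edgeR = 0.868), with a 95% interval of -0.42 to 0.54. With the replicate number as a block, which removes what the 2 samples of a number share, the interval narrowed to -0.11 to 0.24 around 0.07 (edgeR adjusted p = 0.512). On the log2 scale of CPM, the distal sample exceeded its proximal partner by 0.17, 0.08 and 0.33 in numbers 2, 3 and 4. These differences are taken before TMM scaling. Its factors were 1.03, 1.07 and 1.03 in distal and 0.963, 0.996 and 0.920 in proximal samples 2, 3 and 4. Scaling thus makes each difference smaller, and in number 3 it leaves no distal excess.

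The other macrophage gene, marco (ENSDARG00000059294), encodes a scavenger receptor that binds bacteria and particles. Its levels were 24.8, 26.9 and 37.0 CPM in distal samples 2, 3 and 4 and 23.9, 35.6 and 33.4 CPM in proximal samples 2, 3 and 4. The groups overlapped, and the order of the samples differed from that of mpeg1.1: in distal tissue the sample numbered 4 was the highest for marco and the lowest for mpeg1.1. The log2 fold change of marco was -0.19 (SE 0.20; adjusted p in edgeR = 0.527), with a 95% interval of -0.65 to 0.27. Reads of marco per read of mpeg1.1 were 0.310, 0.309 and 0.640 in distal and 0.336, 0.432 and 0.725 in proximal samples 2, 3 and 4, so the samples numbered 4 stood apart from the others in both regions.

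Of the general leukocyte genes, ptprc (ENSDARG00000071437) had the largest fitted decrease. It encodes CD45, the receptor tyrosine phosphatase found on nearly all leukocytes, which sets the threshold of signalling through their Src-family kinases. It had 11.9, 10.3 and 8.70 CPM in distal samples 2, 3 and 4, against 17.9, 22.1 and 15.9 CPM in proximal samples 2, 3 and 4. The groups did not overlap. The distal level was 51.0% of the proximal level, a log2 fold change of -0.97 (SE 0.16; adjusted p in edgeR = 0.00287). The call held in all 16 alternatives, with adjusted p-values from 4.13e-06 to 0.0468.

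Both lcp1 (ENSDARG00000023188), which encodes L-plastin, an actin-bundling protein of leukocytes, and coro1a (ENSDARG00000054610), which encodes coronin 1A, an actin-binding protein of leukocytes, were lower in distal tissue. For lcp1 the distal samples 2, 3 and 4 had 45.6, 48.8 and 43.2 CPM, against 61.9, 85.3 and 54.6 CPM in the proximal samples. The groups did not overlap, and the proximal sample numbered 3 was the highest. The distal level was 63.0% of the proximal level, a log2 fold change of -0.67 (SE 0.14; adjusted p in edgeR = 0.0102), and the call was lost in 1 of 16 alternatives, without both samples numbered 2 (edgeR adjusted p = 0.0811).

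For coro1a the distal samples 2, 3 and 4 had 17.6, 15.8 and 14.4 CPM, against 24.7, 24.2 and 15.7 CPM in the proximal samples. The proximal sample numbered 4 fell within the distal range, so the groups overlapped. The distal level was 68.4% of the proximal level, with a log2 fold change of -0.55 (SE 0.17; adjusted p in edgeR = 0.0444). This call was close to the threshold and remained in 7 of 16 alternatives. Leaving out any single library other than proximal sample 4 ended it (edgeR adjusted p = 0.0631, 0.128 and 0.102 without distal samples 2, 3 and 4, and 0.156 and 0.126 without proximal samples 2 and 3). It was also lost on library size alone (edgeR adjusted p = 0.117) and with limma-voom (adjusted p = 0.0527). Leaving out both samples numbered 2 (edgeR adjusted p = 0.181) or both numbered 3 (0.267) ended the call too. None of these runs used the block. Blocking on the number gave a log2 fold change of -0.54 (SE 0.11; adjusted p in edgeR = 0.00121), and the call held. On the log2 scale of CPM, distal minus proximal was -0.49, -0.62 and -0.12 in numbers 2, 3 and 4.

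The transcription factor gene spi1b (ENSDARG00000000767) encodes PU.1, which directs precursor cells to the myeloid fate. It had 20.3, 22.5 and 20.4 CPM in distal samples 2, 3 and 4 and 21.8, 26.1 and 22.7 CPM in proximal samples 2, 3 and 4. The groups overlapped, although each distal sample was below its proximal partner. The log2 fold change of -0.28 (SE 0.10) did not pass without the block (edgeR adjusted p = 0.0777) and passed with the replicate number as a block (-0.28, SE 0.09; adjusted p in edgeR = 0.0215). With the block, 5 of the 9 genes were thus called lower and 0 higher, where 25.1% and 23.3% of all tested genes were.

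The cytokine gene il1b (ENSDARG00000098700) had 4.98, 7.65 and 11.14 CPM in distal samples 2, 3 and 4 and 6.31, 6.67 and 7.22 CPM in proximal samples 2, 3 and 4. The 3 proximal values lay within the range of the distal values, and distal sample 4 was the highest of all libraries. The coefficient of variation was 38.9% between distal libraries, where counting error was 7.73%, and 6.80% between proximal libraries, where it was 8.16%. No difference between regions could be called, with a log2 fold change of 0.11 (SE 0.27; adjusted p in edgeR = 0.798) and a 95% interval of -0.52 to 0.74. Without distal sample 4 the log2 fold change was -0.23 (edgeR adjusted p = 0.476).

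**Figure D2:**
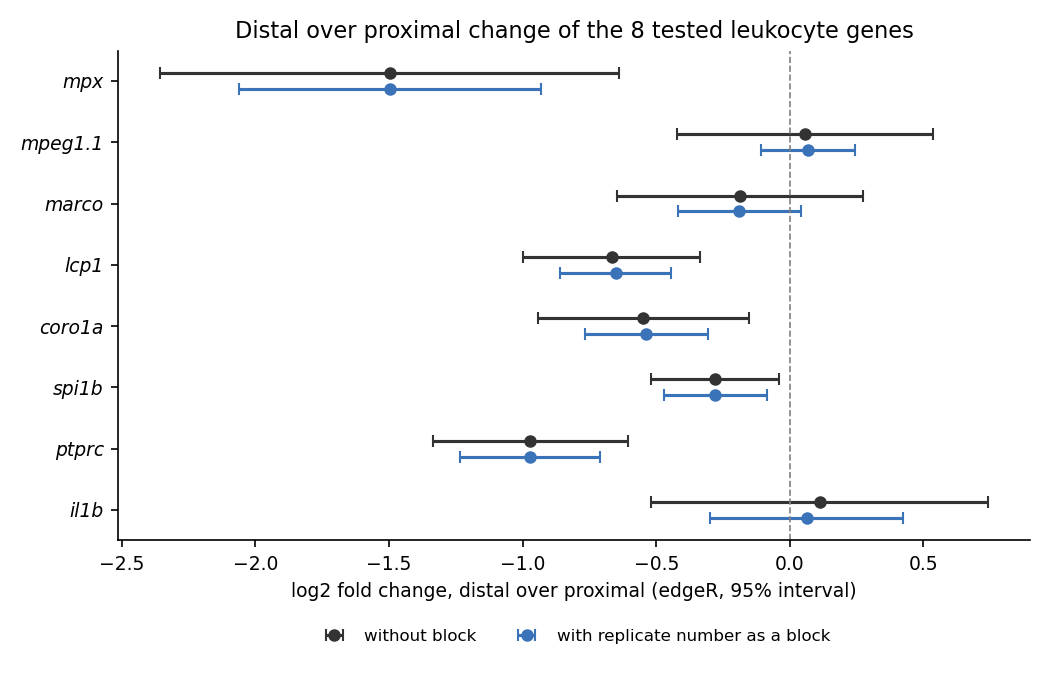
Log2 fold change of the 8 tested genes, distal over proximal (horizontal axis), from edgeR without a block (dark) and with the replicate number as a block (blue). Points are estimates and bars are 95% intervals. The intervals of mpx, lcp1, coro1a and ptprc lie below 0 in both fits, those of mpeg1.1, marco and il1b include 0 in both, and that of spi1b lies below 0 before any adjustment for the number of genes.

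The genes were also set against each other within each library, which removes library size and scaling. These ratios of reads were chosen after the levels had been seen. Because ptprc was lower in distal tissue, a gene with a smaller decrease has a higher ratio to ptprc there. The direction of these ratios thus follows from the levels above, and their tests add no separate evidence. A library held 6.70, 8.47 and 6.65 reads of mpeg1.1 per read of ptprc in distal samples 2, 3 and 4, against 3.97, 3.73 and 2.89 in proximal samples 2, 3 and 4. The groups did not overlap, and the mean log2 ratio differed by 1.05 between regions. A two-sided exact permutation test gave p = 0.1 (0.3 adjusted over the 9 ratios computed by Benjamini-Hochberg), the smallest p that this test can give with 3 samples in each region.

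Reads of spi1b per read of ptprc were 1.70, 2.19 and 2.35 in distal and 1.22, 1.18 and 1.42 in proximal samples 2, 3 and 4, again without overlap (exact permutation p = 0.1, adjusted 0.3). Those of coro1a were 1.48, 1.53 and 1.66 in distal and 1.38, 1.09 and 0.985 in proximal samples 2, 3 and 4 (exact permutation p = 0.1, adjusted 0.3). For marco, lcp1 and il1b per ptprc the mean was higher in distal tissue but the groups overlapped (exact permutation p = 0.2 each, adjusted 0.3). Reads of il1b per read of ptprc were 0.418, 0.743 and 1.28 in distal samples 2, 3 and 4 and 0.352, 0.302 and 0.453 in proximal samples 2, 3 and 4. In contrast, reads of mpx per read of ptprc were 0.0430, 0.0826 and 0.131 in distal and 0.106, 0.0764 and 0.181 in proximal samples 2, 3 and 4. Their mean was lower in distal tissue, the groups overlapped, and the mean log2 ratio differed by -0.55 (exact permutation p = 0.5, adjusted 0.562).

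**Figure D3:**
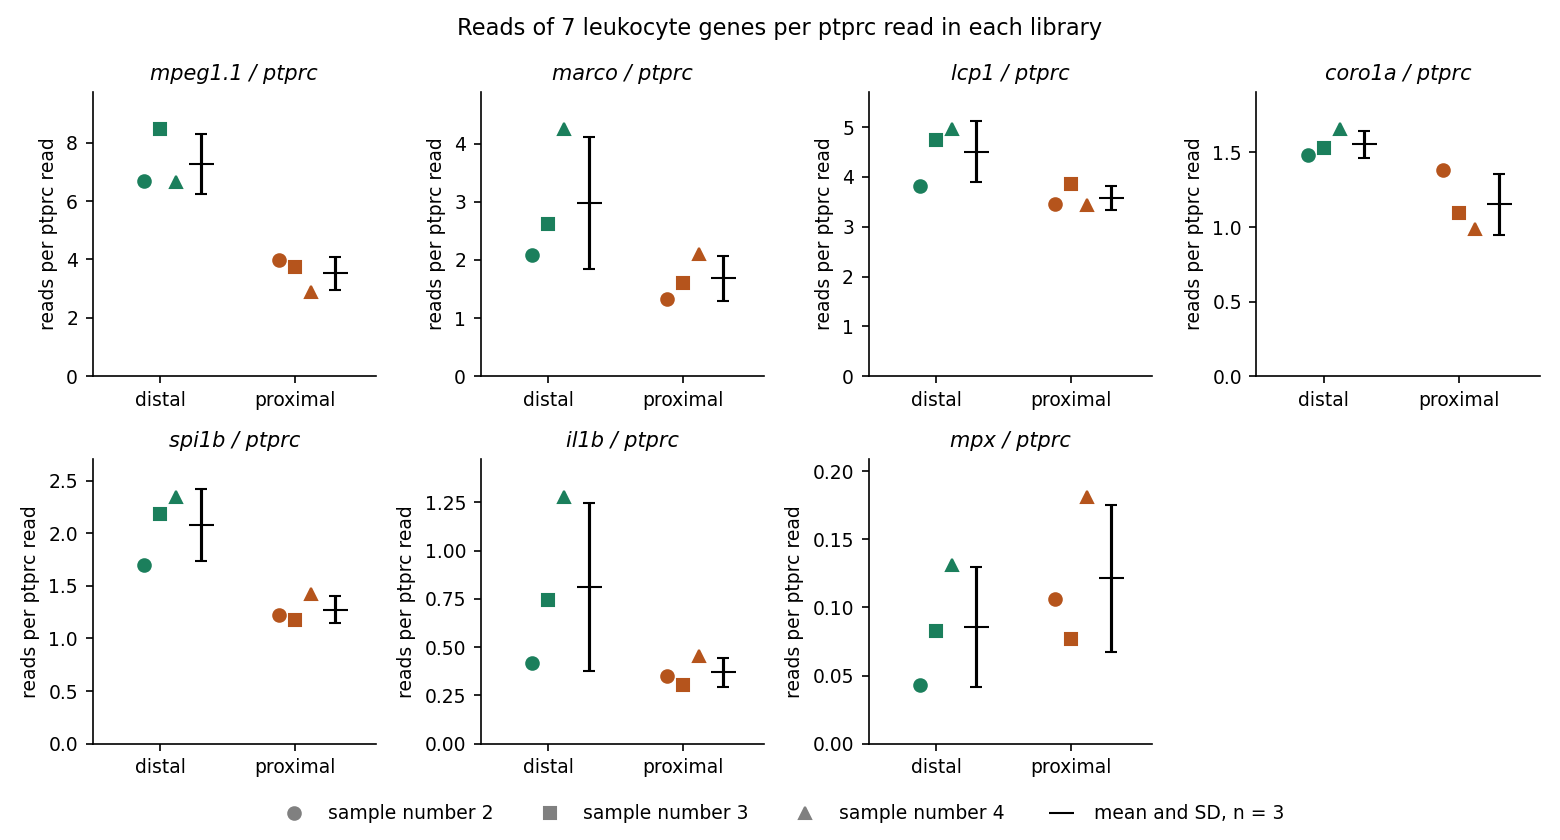
Reads of 7 leukocyte genes per read of ptprc in each library (vertical axes, each from 0), for distal and proximal samples. Points are libraries, shaped by sample number, and bars are the mean and SD of 3. The ratio was 7.27 ± 1.04 in distal and 3.53 ± 0.567 in proximal libraries for mpeg1.1, with no overlap, and the groups overlap for marco, lcp1, il1b and mpx.

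More genes of the same cell types were taken from lists of symbols written down for neutrophils, macrophages, leukocytes in general and inflammatory mediators, matched by symbol. These lists were chosen with earlier results of these data known, and they include the genes described above. Of the 18 neutrophil symbols 13 were matched and 11 tested, mpx included. Of these 11, 7 were called lower and 1 higher in distal tissue, where 14.4% and 15.3% of all tested genes were. The median log2 fold change was -1.07, compared with -0.015 over all tested genes. Without mpx, 6 of 10 were called lower and 1 higher, and the median was -0.81. The lower genes of the list with the largest changes were scpp8 (0.424 ± 0.102 CPM in distal and 1.13 ± 0.568 in proximal tissue; log2 fold change -1.53, edgeR adjusted p = 0.0395), mpx, and npsn, which encodes nephrosin, a protease of leukocyte granules. The values of scpp8 rest on few reads, 11, 7 and 9 in distal and 22, 15 and 38 in proximal libraries. The level of npsn was 2.36 ± 0.424 CPM in distal and 6.07 ± 0.940 CPM in proximal tissue (SD, n = 3 each), a log2 fold change of -1.49 (SE 0.23; adjusted p in edgeR = 0.0020).

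The exception was mmp9, a matrix metalloproteinase that neutrophils store and that other cells of a wounded fin also make. It had 169.6, 193 and 171 CPM in distal and 51.3, 44.1 and 68.7 CPM in proximal samples 2, 3 and 4, a log2 fold change of 1.57 (edgeR adjusted p = 0.000548). The 13 matched neutrophil genes summed to 246 to 268 CPM in distal and 161 to 175 CPM in proximal libraries, but without mmp9 to 74.5 to 89.5 CPM in distal and 106 to 117 CPM in proximal libraries. The count of lower calls in the list ranged from 4 to 7 when single libraries were left out, with 4 without distal sample 3, and it was 2 and 3 without both samples numbered 2 and 3. Among the 8 list genes averaging at least 50 counts it was 4, and their median log2 fold change was -0.46.

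Other neutrophil genes, singled out after their values were seen, concern its growth factor receptor and its oxidase. The receptor gene csf3r, which transmits the signal of granulocyte colony-stimulating factor, had 6.61, 6.49 and 6.51 CPM in distal and 13.2, 16.8 and 13.2 CPM in proximal samples 2, 3 and 4. Its groups did not overlap, and the log2 fold change was -1.26 (edgeR adjusted p = 0.000356). The gene cyba, which encodes a membrane subunit of the phagocyte NADPH oxidase, the enzyme that makes superoxide, was lower in distal tissue (log2 fold change -0.55, edgeR adjusted p = 0.00765). The oxidase genes ncf1, cybb and ncf4 did not pass without the block: ncf1 had a log2 fold change of -0.36 (edgeR adjusted p = 0.326), cybb of -0.13 (adjusted p = 0.540) and ncf4 of 0.38 (adjusted p = 0.206). With the replicate number as a block, ncf1 was called lower (log2 fold change -0.39, edgeR adjusted p = 0.0318), and cybb and ncf4 were not called (edgeR adjusted p = 0.383 and 0.0578).

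Of the 28 macrophage symbols 22 were matched and 21 tested, mpeg1.1 and marco included. Of these, 2 were called lower and 2 higher in distal tissue, where 14.4% and 15.3% of all tested genes were. The median log2 fold change was -0.19. Without mpeg1.1 and marco, 2 of 19 were called lower and 2 higher, and the median was -0.23. The largest changes were apoc1, which encodes an apolipoprotein (44.5, 48.9 and 49.1 CPM in distal and 6.39, 4.85 and 6.56 CPM in proximal samples 2, 3 and 4; log2 fold change 2.87, edgeR adjusted p = 1.42e-05), and csf1rb, a copy of the receptor gene for macrophage colony-stimulating factor (20, 19 and 5 reads in distal and 57, 64 and 39 in proximal libraries; log2 fold change -1.91, edgeR adjusted p = 0.0111). The lysosomal protease gene lgmn was higher in distal tissue (341 ± 61.1 CPM, against 164 ± 46.5 CPM in proximal tissue; log2 fold change 0.94, edgeR adjusted p = 0.00872). Which cells made the apoc1 and lgmn RNA was not tested. The chemokine gene ccl34a.4 was lower (6.37 ± 0.860 CPM in distal, against 9.52 ± 2.75 CPM in proximal tissue, log2 fold change -0.70, edgeR adjusted p = 0.0461). The macrophage genes csf1ra, c1qb and c1qc, singled out after their values were seen, had log2 fold changes of -0.51, -0.60 and -0.54. They were not called without the block (edgeR adjusted p = 0.0673, 0.0584 and 0.0588). With the replicate number as a block they were called lower (edgeR adjusted p = 0.00129, 0.000254 and 0.000945). The related gene c1qa was not called without the block (log2 fold change -0.41, edgeR adjusted p = 0.222) or with it (-0.39, adjusted p = 0.0519). In the other direction, ctss2.2 was called higher with the block (log2 fold change 0.32, edgeR adjusted p = 0.0201). The log2 fold changes of irf8, havcr1 and stab1 were -0.02, -0.01 and 0.08 without the block, and none was called.

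With the replicate number as a block, 7 macrophage genes were called lower and 3 higher, where 25.1% and 23.3% of all tested genes were. The count of lower calls thus depended on the pairing. It was 6 without proximal sample 4, 1 without distal sample 2, distal sample 3 or proximal sample 2, and 0 without both samples numbered 2 or both numbered 3, 6 without both numbered 4, 5 with DESeq2, and 1 with limma-voom, on library size alone or among genes averaging at least 50 counts. The identifier ENSDARG00000043093, which the gene table lists under the same symbol as mpeg1.1, had 14.7, 13.9 and 13.5 CPM in distal and 22.1, 19.3 and 14.0 CPM in proximal samples 2, 3 and 4. Its log2 fold change was -0.51 (SE 0.16; adjusted p in edgeR = 0.0441), in contrast to that of mpeg1.1. The difference between these related genes was not tested, and reads shared by near-identical stretches would not have been counted to either.

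Of the 26 general leukocyte symbols 21 were matched and all 21 tested, the 4 genes lcp1, coro1a, spi1b and ptprc among them. Here 14 were called lower and 1 higher in distal tissue, where 14.4% and 15.3% of all tested genes were. The median log2 fold change was -0.67. Without the 4 genes, 11 of 17 were called lower and 1 higher, and the median was -0.67. The largest decreases were in plek, which encodes pleckstrin, a substrate of protein kinase C in blood cells (2.58 ± 0.341 CPM in distal and 7.65 ± 1.56 CPM in proximal tissue; log2 fold change -1.68, edgeR adjusted p = 0.000519), in hcls1, which encodes an actin regulator related to cortactin (29.8 ± 2.12 CPM in distal and 84.7 ± 7.88 CPM in proximal tissue; log2 fold change -1.63, adjusted p = 5.97e-05), and in tyrobp, which encodes the signalling adaptor DAP12 (6 to 10 reads per library in distal and 18 to 23 in proximal tissue; log2 fold change -1.41, adjusted p = 0.0112). The gene called higher was runx1, a transcription factor of blood stem cells that is also active outside blood (13.2 ± 3.16 CPM in distal and 3.04 ± 0.890 CPM in proximal tissue; log2 fold change 2.00, edgeR adjusted p = 0.000756).

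The summed level of the general leukocyte list was 612 to 725 CPM in distal and 911 to 1204 CPM in proximal libraries. Without arhgdig, its most abundant gene, it was 437 to 480 CPM in distal and 609 to 760 CPM in proximal libraries, so the groups did not overlap either way. Lower calls numbered 10 on library size alone and 10 to 13 without single libraries (10 without distal sample 3 or proximal sample 3). Without both samples numbered 2, 3 and 4 they numbered 7, 7 and 15. With the replicate number as a block, 18 were called lower and 2 higher, where 25.1% and 23.3% of all tested genes were.

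**Figure D4:**
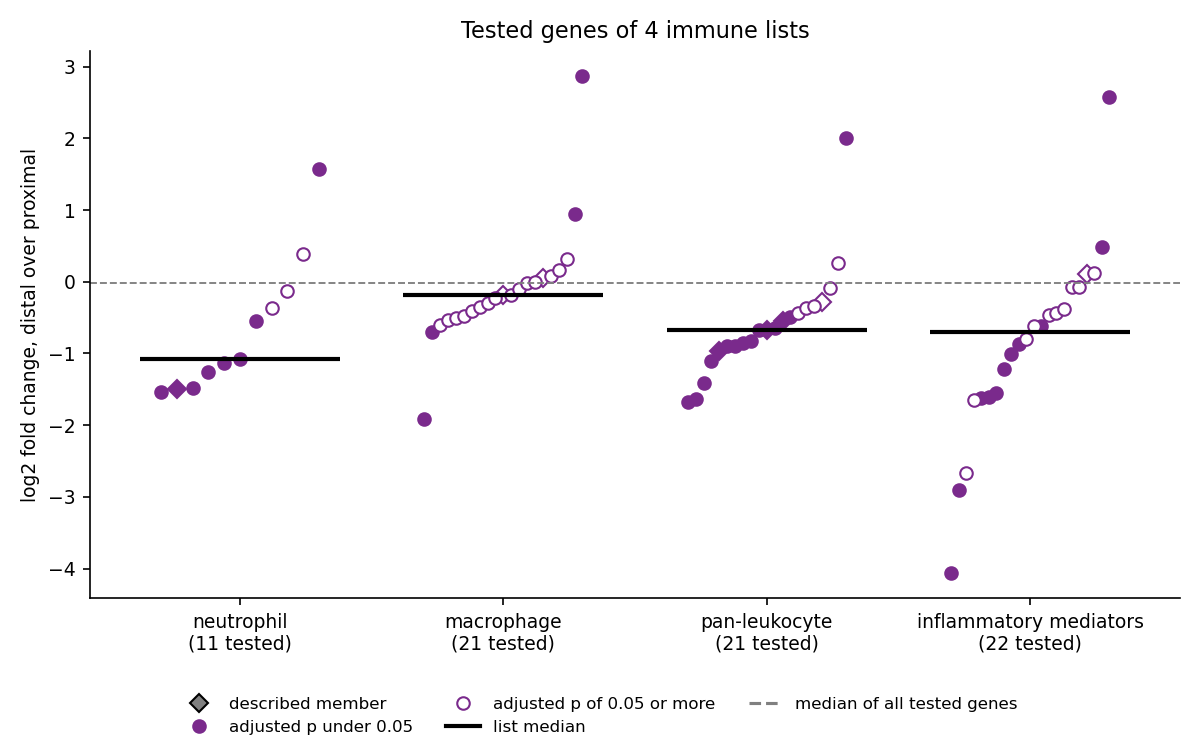
Log2 fold change, distal over proximal (vertical axis), of the tested genes in 4 immune lists, sorted within each list. Diamonds are the 8 tested genes described first, circles are the other genes, filled symbols have an edgeR adjusted p under 0.05, black lines are list medians and the dashed line is the median of all tested genes. The medians lie at -1.07 for neutrophil, -0.19 for macrophage, -0.67 for general leukocyte and -0.71 for inflammatory genes.

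Of the 37 inflammatory symbols 30 were matched and 22 tested, il1b included. Of these, 9 were called lower and 2 higher in distal tissue, where 14.4% and 15.3% of all tested genes were. The median log2 fold change was -0.71. Without il1b, 9 of 21 were called lower and 2 higher, and the median was -0.80. The neutrophil-attracting chemokine genes cxcl8a and cxcl8b.1 were lower in distal tissue. For cxcl8b.1 the distal samples 2, 3 and 4 had 1.21, 1.83 and 3.18 CPM, against 12.9, 7.95 and 21.6 CPM in the proximal samples, a log2 fold change of -2.91 (SE 0.47; adjusted p in edgeR = 0.00259). For cxcl8a the levels were 0.419, 0.403 and 1.04 CPM in distal and 1.65, 1.55 and 2.05 CPM in proximal samples 2, 3 and 4, a log2 fold change of -1.62 (SE 0.41; adjusted p in edgeR = 0.0196). The values of cxcl8a rest on few reads, 9, 9 and 21 in distal and 39, 34 and 44 in proximal libraries. In both cxcl8a and cxcl8b.1 the sample numbered 4 was the highest of its region, as it was for mpx.

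The gene csf3a, a copy of the gene for granulocyte colony-stimulating factor, which promotes the formation of neutrophils, had 0, 1 and 1 reads in distal and 12, 14 and 12 reads in proximal libraries. The pooled distal to proximal ratio was 0.0551, with a 95% interval of 0.00644 to 0.213 from counting error alone, and the gene was called lower (edgeR adjusted p = 0.00197). It passed the filter on low counts through its proximal libraries alone, so a lower call was the only one open to it. The call thus adds nothing to the read counts themselves. The other copy, csf3b, was too low to be tested, with 8, 7 and 0 reads in distal and 9, 5 and 7 reads in proximal libraries. Its groups overlapped, and its pooled ratio was 0.748, with a 95% interval of 0.359 to 1.52 from counting error alone. The ligand genes of the macrophage colony-stimulating factor receptor, singled out after their values were seen, were lower in distal tissue: il34 by a log2 fold change of -1.01 (edgeR adjusted p = 0.00335), csf1a by -0.61 (adjusted p = 0.00409) and csf1b by -1.22 (adjusted p = 0.000201).

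In the other direction, il11a, which encodes a cytokine of the interleukin 6 family, was higher in distal tissue (6.71, 10.2 and 9.60 CPM, against 1.52, 1.19 and 1.35 CPM in proximal samples 2, 3 and 4; log2 fold change 2.58, edgeR adjusted p = 0.000131). The other gene called higher was tgfb1a, named here to complete the count, which encodes transforming growth factor beta 1 (log2 fold change 0.48, edgeR adjusted p = 0.00507). With the replicate number as a block, 15 inflammatory genes were called lower and 2 higher, where 25.1% and 23.3% of all tested genes were. Among the genes that il1b is often named with, tnfa and il6 were too low to be tested, with 0.251 and 0.140 CPM in distal and 0.272 and 0.178 CPM in proximal tissue on average.

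Markers of other cells in the tissue also differed between regions, and their part in these results was not tested. Over all tested genes, 14.4% were called lower and 15.3% higher in distal tissue. Of 22 matched lymphocyte genes 11 could be tested, with 5 called lower and 1 higher in distal tissue. The count of lower calls was 1 to 3 without single libraries (1 without proximal sample 3), 1, 0 and 2 without both samples numbered 2, 3 and 4, 3 on library size alone or with no filter, and 2 with DESeq2 or among genes averaging at least 50 counts. It was 4 with DESeq2 size factors and 5 with limma-voom. With the replicate number as a block, 6 were called lower and 2 higher, where 25.1% and 23.3% of all tested genes were. The 22 matched lymphocyte genes summed to 122 to 127 CPM in distal and 56.8 to 65.1 CPM in proximal libraries, or 38.6 to 40.8 CPM in distal and 44.9 to 52.4 CPM in proximal libraries without tcf7, a Wnt pathway transcription factor gene that is not restricted to lymphocytes. The B cell genes cd79a, cd79b, pax5 and ighm and the recombination genes rag1 and rag2 did not pass the filter. The T cell gene cd8a had a log2 fold change of 0.52 and was called higher only with the block (edgeR adjusted p = 0.0442, and 0.106 without it). Its relative cd8b did not pass the filter, with 10, 18 and 6 reads in distal and 2, 3 and 5 reads in proximal libraries. Of the 11 epidermal genes 5 were called lower and 1 higher, and of the 10 fibroblast or blastema genes 2 lower and 6 higher. The single higher epidermal call was lost without distal sample 3 or 4 or proximal sample 2 or 3, and 1 of the lower fibroblast calls without any single library other than proximal sample 2. The pigment cell list, which shares csf1ra with the macrophage list, had 5 of 8 called lower and 1 higher. The endothelial list had 3 of 5 called lower (0 without both samples numbered 2), and 3 of 8 lower and 1 higher with no filter. Its genes cdh5 and flt1, too low for the filter, had more CPM in every distal library than in any proximal library. Reads of cdh5 were 38, 12 and 7 in distal and 6, 3 and 2 in proximal libraries. The erythrocyte and thrombocyte lists had 0 of 5 and 0 of 2 called by edgeR, with 0 at an unadjusted p under 0.05 and 0 called by DESeq2 or limma-voom. Erythrocyte genes summed to 40.3, 469 and 23.8 CPM in distal and 65.4, 203 and 17.8 CPM in proximal samples 2, 3 and 4. The samples numbered 3 were thus the highest of both regions, and the absence of calls does not show an even blood content. How this uneven level relates to the leukocyte genes was not tested.

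Across the 6 libraries, the log2 CPM of ptprc after TMM scaling correlated with that of lcp1 at a Pearson r of 0.95. It correlated with spi1b at 0.89, with coro1a at 0.89, with mpx at 0.68 and with mpeg1.1 at 0.13, while mpeg1.1 and marco correlated at -0.61. For deviations from the region mean, the correlation of ptprc was 0.71 with lcp1, 0.27 with spi1b and 0.68 with coro1a, -0.94 with mpx and 0.78 with mpeg1.1. The sign for mpx was thus opposite to that over the 6 libraries. Between mpeg1.1 and marco it was -0.61. These are descriptions of 6 libraries that differ in region, number and depth, and the values over all 6 include the difference between regions. Among tested genes with a mean of at least 10 CPM, those most like ptprc over the 6 libraries were KIF23 (r = 0.996), PLK4 (0.994) and NFIX (0.993), spelled as in the gene table. Those most like mpx were b2m, ANKRD22 and ANXA4 (0.998 each), and those most like mpeg1.1 were SLC3A2 (0.990), apbb1 (0.989) and AEBP1 (0.986). Those most like il1b were PAIP2B (0.979), PRDX1 (0.972) and WDR13 (0.971). Each is the highest of 9837 or 9838 candidates over only 6 points.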

How the data were processed

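Library preparation used a kit that keeps the strand of the mRNA, per the labels' protocols. The deposited files hold raw read counts per Ensembl gene for each sample. TopHat2, HTSeq and the build GRCz11 (danRer11) are named in the submitters' processing notes, whose versions and strand setting are not given in the sources used here. Reads with several alignments were left uncounted, per the files' category lines. A line with an empty identifier equals the sum of gene counts and was left out. The test was run in edgeR 4.0.16 under R 4.3.3 (filterByExpr with a minimum of 10 counts, TMM, quasi-likelihood test on all 6 samples without a block, Benjamini-Hochberg adjustment over 18455 genes). Alternatives were DESeq2 1.42.0 and limma 3.58.1 (voom), other scalings and filters, the replicate number as a block, and leaving out each sample. Leaving out both samples of a number was added after seeing the data. SE is the absolute log2 fold change divided by the square root of F. Correlations, those between samples included, used log2 CPM of the tested genes over TMM-scaled library sizes, with a prior count of 2.

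Groups and numbers come from the sample titles. Whether pieces with equal numbers share fins is not stated in the labels. Deviations from the region mean correlated at 0.42, 0.56 and 0.68 between same-numbered samples, all over 0.1, so the numbers were taken to pair the samples. Between different numbers the correlation was 0.101 for distal 3 with proximal 2 and 0.115 for distal 2 with proximal 3. Where only 1 of the samples was numbered 4, it lay between -0.52 and -0.38. The cut-off of 0.1 thus does not by itself separate equal from different numbers. Each library was counted as a replicate. Libraries of a region differed far beyond sampling noise (chi-square per degree of freedom of 16.9 to 29.9), which does not show that they come from separate fish. No label says that they do, and p-values measure the spread between these pools. The 9 genes and the marker lists were chosen with earlier results of these data known. Named genes are the 9, in each immune list the 4 called genes with the largest absolute log2 fold change, and the 3 genes most like mpx, mpeg1.1, ptprc and il1b. The other genes named, among them csf3r, the oxidase genes, il34, csf1a, csf1b and tgfb1a, were chosen after their values were seen. Of the listed identifiers, 29178 have a symbol in the gene table, and 159 of 197 list entries were matched to a single gene. The test code was checked on simulated counts. A result for 1 gene of the neutrophil list is not reported here.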

Additional observations from a re-analysis of the deposited data

How the results depend on the processing

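Of the 9 genes, 4 were called with DESeq2 size factors, with no filter and with DESeq2, 3 on library size alone and with limma-voom, and 3 with a filter at a mean of 50 counts, which removed mpx. With the replicate block 5 were called, and the block changed the call of spi1b alone among the 8 tested genes. Leaving out single samples gave 2 to 3 calls, all lower in distal tissue, and leaving out both samples of a number gave 1, 2 and 4 for numbers 2, 3 and 4. The cause was not tested. The log2 fold change of mpeg1.1 turned slightly negative without distal sample 2 (-8.5e-05), without distal sample 3 (-0.05) and without proximal sample 4 (-0.13), and that of il1b without distal sample 4 (-0.23) and without both samples numbered 4 (-0.14), none of them called. Without single samples they ranged from -0.13 to 0.22 and from -0.23 to 0.35. Over all genes, 5480 were called (2661 lower and 2819 higher in distal tissue), 8938 with the replicate block (4632 and 4306), 3807 to 5093 without single samples (1746 to 2443 lower), and 2231, 2932 and 5244 without both samples numbered 2, 3 and 4 (988, 1233 and 2568 lower; 1243, 1699 and 2676 higher). Depth limited mpx, scpp8, csf1rb, tyrobp, cxcl8a, csf3a and lyz, of which lyz had too few reads to be tested. The genes scpp8, csf1rb, tyrobp, cxcl8a and csf3a needed their proximal libraries to pass the filter on low counts. A call in the other direction was thus hardly open to them, and they count among the lower calls of their lists.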
